A study of Rattus norvegicus with 24 samples.

Results

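The response of the liver to a female's own high-fat diet (HFD) was followed in rats whose grandfather had eaten chow. The comparison was chosen by the sample titles, GpatCD-HF against GpatCD-CD, and held 13 of the 24 arrays of the study: 7 from females on chow and 6 from females on the HFD. All were adult F2 Sprague-Dawley females, fed chow or a diet with 42/45% of energy from fat for 12 weeks, and in both groups the grandfather (F0) was chow-fed. The remaining 11 arrays came from females whose grandfather ate the HFD (6 on chow, 5 on the HFD), and are called the HFD line here. Each array measured total RNA of 1 liver sample (200 ng input) on an Affymetrix whole-transcript array. Arrays are named by the number in their title: 21, 25, 26, 27, 28, 29 and 30 on chow, and 22, 31, 32, 33, 34 and 35 on the HFD. Litters and parents are not named in the labels, so each array was taken as a separate animal. Littermates within a group would bias the p-values downward, and littermates split between the diets could bias them upward.

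Liver cells make cholesterol from acetyl-CoA by way of mevalonate, isoprenoid units and squalene. When sterol in the endoplasmic reticulum is plentiful, INSIG proteins hold SCAP and the transcription factor SREBP-2 there, and transcription of nearly the whole pathway falls together. When sterol is scarce, SREBP-2 is cut, enters the nucleus and acts at promoters together with general factors such as NF-Y, which binds CCAAT, and Sp1, which binds GC-rich boxes.

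Signal is given as log2(intensity + 16), where intensity is the value per probe set that the authors deposited. A probe set was called where limma's two-sided p, adjusted by Benjamini-Hochberg over the 15687 probe sets tested, was under 0.05, and log2 fold changes are given ± their standard error. On the HFD, 38 probe sets fell (0.242% of those tested) and 12 rose (0.0765%), together 0.319%. The calls covered 34 genes that fell, 12 genes that rose and 3 unnamed probe sets, all of them among the falls. The median log2 fold change of all tested probe sets was 0.01.

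The scaling between arrays did not separate the diets. On chow the arrays had a median intensity of 116 ± 11.1 (SD, n = 7), and those on the HFD of 115 ± 8.63 (n = 6), a difference within the spread between arrays (exact two-sided permutation test over 1716 regroupings, p = 0.748). Arrays 21, 25 and 22 stood apart from the other 10 in a principal component analysis. The growth protocol names gonadal fat as the tissue, while titles, source and tissue labels name liver. Hepatocyte genes were near the top of the range, with Alb, which encodes albumin, at 13.4 and 13.6 (group means on chow and the HFD), and Adipoq, the adipocyte hormone adiponectin, at 6.08 and 6.18, where the filter on dim probe sets lay at 5.72. In tissue, fewer cells of a type and less RNA per cell cannot be told apart.

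Among the falls, genes of cholesterol synthesis made up 11 of the 34 genes. Of 16 measured members of the pathway, all 16 were lower on the HFD and 11 were called, against 0.242% of all tested probe sets. The 200 bases before the RefSeq start are given for 6 called cholesterol genes, picked after the motif search to show 4 with CCAAT (Idi1, Mvd, Msmo1 and Hsd17b7) and 2 without it (Acat2 and Dhcr7), followed by Aacs, whose fall was the largest, and Sesn1. They are RefSeq sequences of the GRCr8 build, 5′ to 3′ in the direction of the gene: Acat2 from chr1:50100640-50100839 (plus strand), Idi1 from chr17:66547525-66547724 (minus strand), Mvd from chr19:67414975-67415174 (minus), Hsd17b7 from chr13:84722755-84722954 (minus), Msmo1 from chr16:29746913-29747112 (plus), Dhcr7 from chr1:208444234-208444433 (plus), Aacs from chr12:36817775-36817974 (minus) and Sesn1 from chr20:46948519-46948718 (plus). Capitals mark CCAAT, or its reverse complement ATTGG, and a match to the sterol response element letters TCACNCCAC on either strand.
Acat2: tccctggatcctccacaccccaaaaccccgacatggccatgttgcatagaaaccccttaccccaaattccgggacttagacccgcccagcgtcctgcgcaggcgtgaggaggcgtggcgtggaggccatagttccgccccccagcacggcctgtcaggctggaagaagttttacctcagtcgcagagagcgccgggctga
Idi1: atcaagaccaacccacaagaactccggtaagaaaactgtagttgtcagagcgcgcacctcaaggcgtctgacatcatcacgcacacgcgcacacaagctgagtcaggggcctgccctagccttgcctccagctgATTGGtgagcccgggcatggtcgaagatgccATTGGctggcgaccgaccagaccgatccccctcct
Mvd: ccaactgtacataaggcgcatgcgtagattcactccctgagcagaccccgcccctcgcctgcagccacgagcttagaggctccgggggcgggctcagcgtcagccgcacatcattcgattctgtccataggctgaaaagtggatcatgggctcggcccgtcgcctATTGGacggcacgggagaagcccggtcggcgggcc
Hsd17b7: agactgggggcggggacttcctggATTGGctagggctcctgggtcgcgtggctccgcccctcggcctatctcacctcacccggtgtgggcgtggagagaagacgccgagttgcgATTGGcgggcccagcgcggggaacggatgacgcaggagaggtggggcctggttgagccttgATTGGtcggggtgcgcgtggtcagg
Msmo1: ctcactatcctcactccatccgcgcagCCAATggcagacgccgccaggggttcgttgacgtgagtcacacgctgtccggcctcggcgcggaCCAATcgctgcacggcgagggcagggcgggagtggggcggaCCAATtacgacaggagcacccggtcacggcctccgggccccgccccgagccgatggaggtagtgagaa
Dhcr7: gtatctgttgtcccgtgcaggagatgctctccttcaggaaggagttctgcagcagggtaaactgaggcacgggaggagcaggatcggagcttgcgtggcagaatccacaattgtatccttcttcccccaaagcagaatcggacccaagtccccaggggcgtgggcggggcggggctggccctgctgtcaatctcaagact
Aacs: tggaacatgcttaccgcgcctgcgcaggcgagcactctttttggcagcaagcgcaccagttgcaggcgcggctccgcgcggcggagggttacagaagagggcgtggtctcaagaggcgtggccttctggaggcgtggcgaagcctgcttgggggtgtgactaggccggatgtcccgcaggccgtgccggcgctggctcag
Sesn1: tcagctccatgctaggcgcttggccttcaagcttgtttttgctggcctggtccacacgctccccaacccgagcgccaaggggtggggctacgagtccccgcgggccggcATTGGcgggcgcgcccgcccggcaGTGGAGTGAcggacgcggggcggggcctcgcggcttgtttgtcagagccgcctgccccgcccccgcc

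The RefSeq table held a promoter for 13 of the 16 measured cholesterol genes (Fdft1, Pmvk and Sqle had no entry) and for 29 of the 34 genes that fell. In the 250 bases before the start, CCAAT on either strand occurred in 5 of the 8 called cholesterol genes with an entry and in 14 of the 29 genes that fell, while 34.0% of all 33469 promoters in the table held it. All 5 uncalled cholesterol genes held it as well, which made 10 of 13. The printed stretch of Idi1 has it at bases -66 and -35 from the start, that of Hsd17b7 at -176, -86 and -25, and that of Msmo1 at -173, -109 and -68. The 3 cholesterol genes without a match were Acat2, Cyp51 and Dhcr7. A GC box (GGGCGG on either strand) was found in 7 of the 8 called cholesterol genes, in 11 of the 13, in 23 of the 29 genes that fell and in 30.5% of all promoters. The letters TCACNCCAC occurred in 0.974% of all promoters and in none of the 13, and the 1 match among the genes that fell was GTGGAGTGA at base -67 of Sesn1. These are matches of letters in a fixed window, and they show neither binding nor its absence.

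The first enzyme of the pathway in the measured set, Acat2, joins acetyl-CoA units in the cytosol. Its brighter probe set read 9.31, 10.31 and 10.56 on chow (lowest, median and highest of 7 arrays) and 7.77, 8.13 and 9.26 on the HFD (6 arrays). No HFD array reached the lowest chow array, and the fold change was -1.65 ± 0.24 on the log2 scale (adjusted p = 0.000851), with -1.69 ± 0.24 on a second probe set. Pmvk, phosphomevalonate kinase, read 8.33, 8.95 and 9.26 on chow and 7.76, 8.07 and 8.75 on the HFD, a change of -0.78 ± 0.15 (adjusted p = 0.0117). For Pmvk the groups overlapped through HFD array 31, the highest of its group. Mvd, which makes isopentenyl diphosphate, read 8.59, 9.58 and 10.04 against 7.31, 7.93 and 8.84, a change of -1.45 ± 0.25 (adjusted p = 0.0038).

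Idi1, the isomerase that interconverts the isoprenoid units, showed the largest fall up to squalene. It read 9.37, 10.45 and 10.92 on chow and 7.23, 8.25 and 9.59 on the HFD, a change of -1.92 ± 0.29 (adjusted p = 0.00104), or 3.79-fold lower. The overlap came from chow array 27, the lowest of its group at 9.37, and HFD array 32, the highest of its group. Fdft1, squalene synthase, was bright in both groups and fell by less, from 11.54, 11.94 and 12.13 to 10.82, 11.12 and 11.70, a change of -0.74 ± 0.12 (adjusted p = 0.00173). Fdps, farnesyl diphosphate synthase, which acts between Idi1 and Fdft1, was not called: it read 9.56, 9.73 and 9.91 on chow and 9.37, 9.52 and 9.72 on the HFD (-0.19 ± 0.09, adjusted p = 0.551).

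From squalene onward, Sqle, squalene monooxygenase and a rate-limiting step, read 9.77, 10.48 and 10.87 on chow and 7.23, 8.45 and 9.77 on the HFD. The change was -1.97 ± 0.33 (adjusted p = 0.00218), or 3.92-fold lower. HFD array 32 lay just under chow array 27, and the other 5 HFD arrays were at 8.71 or lower. Lss, lanosterol synthase, read 10.28, 10.83 and 11.23 against 9.38, 9.72 and 10.45 (-0.95 ± 0.17, adjusted p = 0.00477). Cyp51, which removes a methyl group from lanosterol, read 11.53, 12.01 and 12.12 against 10.17, 10.83 and 11.62 (-1.07 ± 0.17, adjusted p = 0.00126). In both of these genes array 32 was the highest HFD array and overlapped the chow range.

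Msmo1, a sterol methyl oxidase, read 10.87, 11.66 and 11.82 on chow and 9.28, 10.37 and 11.22 on the HFD (-1.25 ± 0.25, adjusted p = 0.0137). Hsd17b7, which acts as a ketosteroid reductase in the pathway, read 10.006, 10.46 and 10.86 against 8.17, 9.04 and 10.005 (-1.42 ± 0.21, adjusted p = 0.000851). Its second, dimmer probe set changed by -0.66 ± 0.16 and was not called (adjusted p = 0.0932). Dhcr7, the last step to cholesterol, had the smallest p of all probe sets tested, although 9 other called genes had larger falls. It read 10.71, 11.10 and 11.32 on chow and 9.54, 9.72 and 9.96 on the HFD, a change of -1.28 ± 0.11 (adjusted p = 1.8e-07), or 2.43-fold lower. The groups lay clearly apart for Dhcr7, and on the HFD its spread was the narrowest among the 11 called genes of the pathway.

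The 5 members that were not called did not behave alike. Tm7sf2 (-0.68 ± 0.16, adjusted p = 0.0755) and Ebp (-0.51 ± 0.12, adjusted p = 0.0761), a sterol reductase and a sterol isomerase, had 5 and 4 of the 6 HFD arrays below the lowest chow array. Sc5d, a desaturase, was at -0.16 ± 0.08 and Nsdhl, a dehydrogenase, at -0.15 ± 0.08, with overlapping groups. For Sc5d all 6 HFD arrays lay below the chow mean, and for Nsdhl 5 of the 6 did. After quantile normalization Tm7sf2 and Ebp were called as well (adjusted p = 0.0304 and 0.0102), which made 13 of 16, and the same 13 were called without HFD array 31 (adjusted p = 0.0452 and 0.0197). Tm7sf2 was also called without HFD array 34 (adjusted p = 0.0391), and Ebp without chow array 21 or HFD array 32 (0.0188 and 0.0407). With arrays 21, 22, 24 and 25, which stand apart, as a block term, Tm7sf2 and Ebp were both called (adjusted p = 0.0124 and 0.00108), and with the 4 arrays left out Ebp was (0.0123). Here and below, calls gained in an alternative were not corrected for the 23 alternatives tried. They describe how a result depends on the arrays and the scaling, and add no support.

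**Figure D1:**
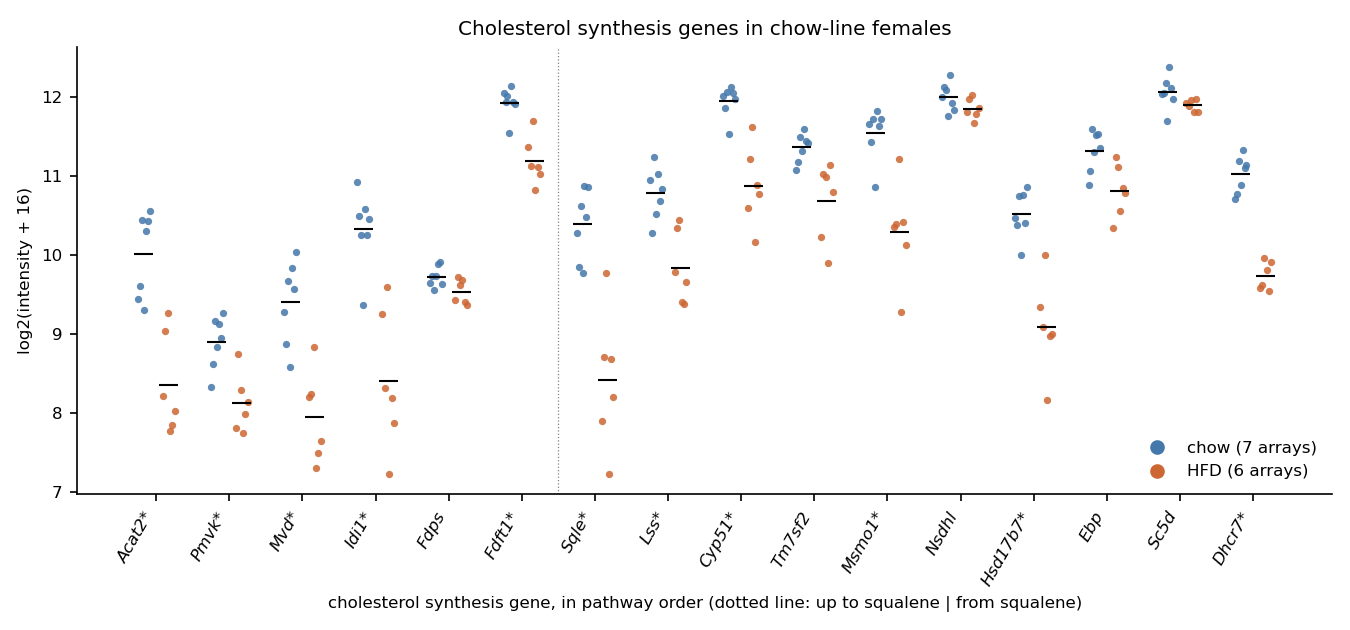
Log2(intensity + 16) of the 16 measured cholesterol synthesis genes on each array of the chow line, in pathway order, with chow (7 arrays) beside the HFD (6 arrays); horizontal bars are group means and a star marks a gene with an adjusted p under 0.05. Dhcr7 is the clearest separation (10.71 to 11.32 against 9.54 to 9.96), while Fdps, Nsdhl and Sc5d barely differ.

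The females on the HFD differed among themselves in how low the pathway was. Averaged over the 16 genes and set against the chow mean, array 33 was lowest at -1.54, followed by arrays 35 (-1.14), 34 (-1.10), 22 (-1.07) and 31 (-0.79), and array 32 was highest at -0.43. The chow arrays ran from -0.39 (array 27) to 0.27 (array 28), so the group means of the pathway did not overlap, with array 32 just below array 27. The same arrays recurred gene after gene. Array 33 was the lowest HFD array in 9 of the 11 called genes, and array 32 the highest in 10 of the 11, with Pmvk the exception. On chow, array 27 was the lowest in 8 of the 11. These counts describe the animals, and the 11 genes are not independent of each other. All 11 genes kept their call when any 1 of the 13 arrays was left out, and Pmvk lost it when the 13 chow-line arrays alone were fitted (adjusted p = 0.0665).

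Of 15 genes tested that sense and move sterols, 1 fell, Stard4, which carries cholesterol between membranes. It read 8.15, 8.35 and 8.56 on chow and 7.02, 7.62 and 7.91 on the HFD, with no overlap (-0.76 ± 0.11, adjusted p = 0.000929). Tmem97, an SREBP-responsive sterol-binding protein, was at -0.53 ± 0.16 (adjusted p = 0.242). Insig1, the sterol sensor, was at -0.48 ± 0.14 (adjusted p = 0.204), Srebf2, the gene of SREBP-2, at -0.46 ± 0.14 (adjusted p = 0.232), and Scap at -0.38 ± 0.11 (adjusted p = 0.2). These 4 were uncalled, and each had an unadjusted p under 0.05, as did 8.8% of all probe sets. Scap was called without chow array 21 (-0.47 ± 0.10, adjusted p = 0.0239) and without arrays 21, 22, 24 and 25 (adjusted p = 0.0309), and Scap and Srebf2 were called with these 4 as a block term (0.0375 and 0.0232). The median of the 15 was -0.03, close to the 0.01 of all probe sets, with 9 of the 15 below 0. Insig2, its relative with different regulation, was at 0.19 ± 0.12, Soat2, which esterifies cholesterol, at 0.15 ± 0.10, and Npc2, which exports cholesterol from lysosomes, at -0.11 ± 0.08, with adjusted p values of 0.71, 0.73 and 0.794. The remaining 7 lay between -0.06 and 0.07 and none had an unadjusted p under 0.05. They were the SREBP proteases Mbtps1 (0.07 ± 0.09) and Mbtps2 (-0.06 ± 0.16), the lysosomal exporter Npc1 (0.06 ± 0.09), the lipoprotein receptor Scarb1 (-0.03 ± 0.14), Soat1 (0.02 ± 0.13), Mylip, which marks the LDL receptor for breakdown (0.01 ± 0.08), and Stard5 (-0.00 ± 0.14). Among 11 targets of LXR, the receptor for oxysterols, none was called and none had an unadjusted p under 0.05 in limma, and their median was 0.01.

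Of 8 measured genes of acetyl-CoA supply and ketone bodies, 2 were called, both lower on the HFD, and the list median was -0.04. Aacs, which activates acetoacetate for lipid synthesis, had the largest fall of all. It read 7.53, 9.10 and 9.26 on chow and 5.88, 6.47 and 6.94 on the HFD (-2.22 ± 0.27, adjusted p = 5.76e-05), or 4.65-fold lower, and no HFD array reached the chow range. Acss2, which makes acetyl-CoA from acetate, read 10.95, 11.63 and 11.87 on chow and 10.08, 10.25 and 11.10 on the HFD (-1.07 ± 0.16, adjusted p = 0.000929). Here array 31 was the HFD array inside the chow range. Acly, which makes cytosolic acetyl-CoA from citrate, was not called (-0.39 ± 0.24, adjusted p = 0.687), and its HFD arrays ran from 10.39 to 12.25, wider than chow at 10.93 to 12.24.

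Genes of fatty acid synthesis did not share the fall. None of 15 tested was called, 10 were above 0, and the median was 0.03. After quantile normalization 6 were above 0 and the median was -0.01, so its sign turned with the scaling. There were 3 that had an unadjusted p under 0.05, all higher on the HFD. These were Fads2, the delta-6 desaturase (0.29 ± 0.10), Elovl2, an elongase of polyunsaturated fatty acids (0.56 ± 0.19), and Thrsp (0.23 ± 0.08), with adjusted p values of 0.319, 0.34 and 0.34. Elovl2 was called without chow array 28 (0.74 ± 0.15, adjusted p = 0.0249). Elsewhere in fatty acid handling, Fads3, a relative of the desaturases, fell by 0.99 ± 0.22 (adjusted p = 0.0432), and Acsf2, an acyl-CoA synthetase, fell by 1.08 ± 0.19 (adjusted p = 0.00388) without overlap between the groups. Cidea, a lipid droplet protein, fell by 0.94 ± 0.21 (adjusted p = 0.0438), the 1 call among 17 lipid droplet and lipolysis genes, whose median was 0.03. The calls of Fads3 and Cidea were each lost in 10 of the 13 fits that left out 1 array.

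Fabp2, the intestinal-type fatty acid binding protein, rose. It read 6.76, 7.47 and 7.83 on chow and 8.33, 8.60 and 9.45 on the HFD (1.35 ± 0.26, adjusted p = 0.0103), or 2.55-fold higher, with every HFD array above every chow array. The call was lost when arrays 21, 22, 24 and 25 were left out together (adjusted p = 0.0551). It was the 1 call among 15 genes of fatty acid uptake and binding, of which 11 were above 0 (median 0.14, and 0.04 after quantile normalization). Fabp4, the adipocyte and macrophage form, was not called (0.80 ± 0.22, adjusted p = 0.157), although its HFD arrays (5.87 to 7.26) all lay above chow (5.26 to 5.83), near the dim end of the scale. In the same fit without the 4 arrays Fabp4 was called (0.93 ± 0.21, adjusted p = 0.0497). The abundant liver form Fabp1 was at 0.19 ± 0.07 (adjusted p = 0.425).

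Vnn1, a pantetheinase and a well-known PPAR-alpha target, rose most among genes of that receptor. It read 6.85, 7.78 and 8.84 on chow and 9.24, 9.34 and 9.97 on the HFD (1.63 ± 0.29, adjusted p = 0.00537), or 3.09-fold higher. Chow females spread over 1.99 log2 units while HFD females, apart from array 34 at the top, lay between 9.24 and 9.46. Of 21 PPAR-alpha and peroxisomal genes, 18 were above 0, and the median was 0.16 both as deposited and on the quantile-normalized values. Vnn1 was the 1 call. Cyp4a8 was at 0.86 ± 0.31 (adjusted p = 0.387), Acot2 at 0.44 ± 0.21 (adjusted p = 0.551), and Ppara itself at 0.27 ± 0.15 (adjusted p = 0.633).

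Mitochondrial beta-oxidation genes, which shorten fatty acids for energy, held no call, with most values above 0. Of 19 tested, 18 were above 0, 5 had an unadjusted p under 0.05, and the median was 0.18 (0.13 after quantile normalization), against 54.4% above 0 and a median of 0.01 over all probe sets. The largest were Eci1, an enoyl-CoA isomerase (0.61 ± 0.22, adjusted p = 0.373), Cpt1a, the gatekeeper of fatty acid entry into mitochondria (0.58 ± 0.25, adjusted p = 0.488), and Decr1, a dienoyl-CoA reductase (0.55 ± 0.16, adjusted p = 0.177). Averaged over the 19 genes, the 6 HFD arrays lay between 0.17 and 0.26 above the chow mean. On chow, 6 arrays lay between -0.23 and 0.05, and array 28, at 0.35, was above every HFD array.

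**Figure D2:**
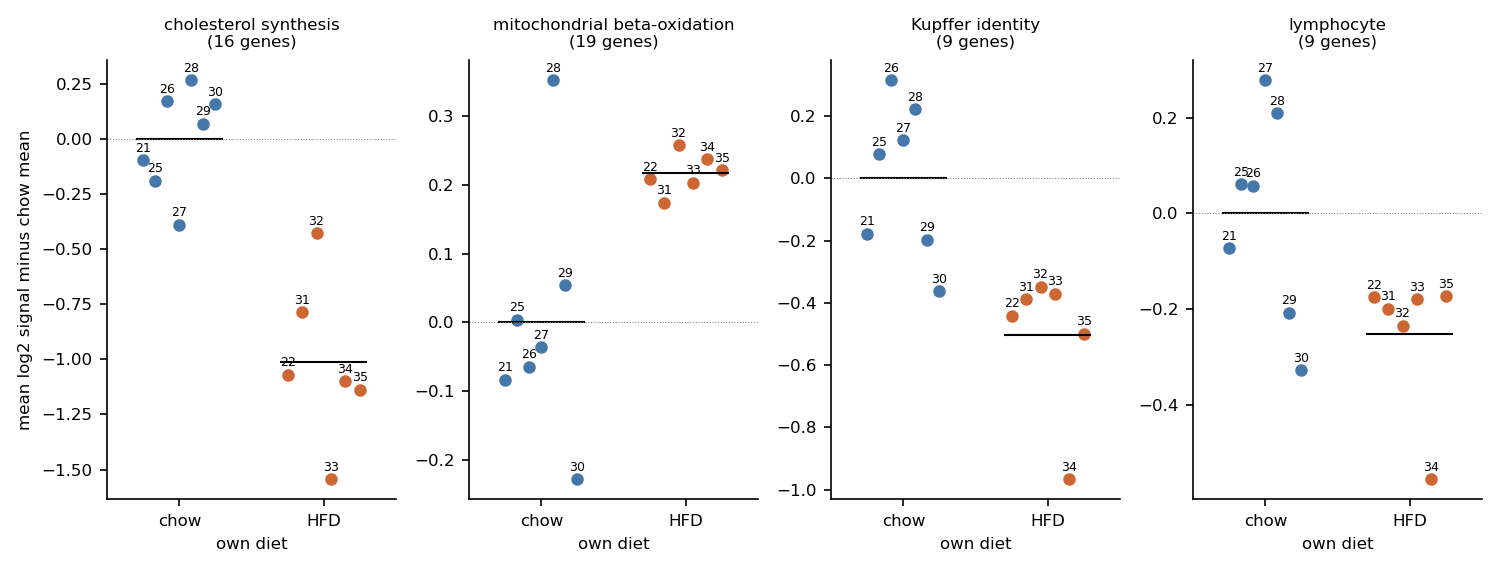
Mean log2 signal of 4 gene lists on each array of the chow line, as the difference from the chow mean; points are arrays with their title number and bars are group means. Arrays 33 and 32 bound the HFD group for cholesterol synthesis (-1.54 and -0.43), array 28 is the high chow array for beta-oxidation (0.35), and array 34 is low for Kupffer and lymphocyte genes.

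Upward shifts were larger among bright probe sets, and several metabolic lists are bright. With the probe sets cut into 10 groups of equal size by mean signal, the median log2 fold change was -0.02 in the dimmest group, 0.03 in group 9 and 0.08 in the brightest, and quantile normalization brought all 10 to between 0.00 and 0.02. Hepatocyte markers, which are bright, were above 0 in 12 of 12. Their median was 0.16, and 0.00 on the quantile-normalized values. Apolipoprotein and export genes moved from 0.15 (14 of 16 above 0) to 0.03, and cytochrome P450 genes of families 1 to 3 from 0.16 (23 of 28 above 0) to 0.06. None of these 3 lists had a call, though 8 of 12, 7 of 16 and 10 of 28 members had an unadjusted p under 0.05, all higher on the HFD. Oxidative phosphorylation genes had 30 of 34 above 0 with a median of 0.10, and 0.06 after quantile normalization. Quantile normalization gives every array the same distribution of values, so this flattening was largely built in. It cannot tell an effect of scaling from a rise of bright genes. The part of brightness in the single genes was not tested.

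**Figure D3:**
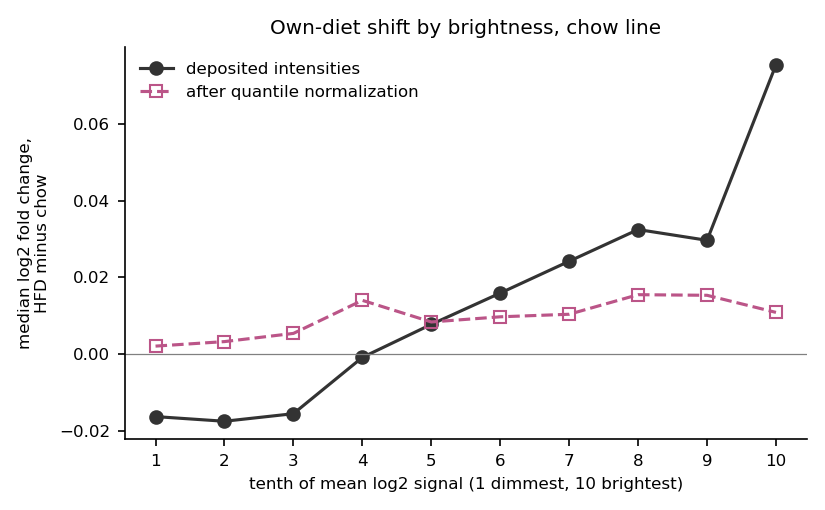
Median log2 fold change (HFD minus chow, chow line) in each of 10 equal groups of the 15687 probe sets by mean signal, from the deposited intensities and after quantile normalization. The deposited values climb from -0.02 in the dimmest group to 0.08 in the brightest, and the normalized ones stay between 0.00 and 0.02.

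Among the P450 genes, Cyp3a23-3a1, which metabolizes steroids and drugs, was at 1.21 ± 0.32 (adjusted p = 0.135) and Cyp3a18 at 1.01 ± 0.31 (adjusted p = 0.255). Members of this family are close copies, so probes may read more than 1 of them. Without chow array 27, the highest of its group, Cyp3a23-3a1 was called (1.45 ± 0.29, adjusted p = 0.0224). Cyp2a1 was at 0.24 ± 0.07 (adjusted p = 0.167) with all 6 HFD arrays above all chow arrays. Nr1i3, the nuclear receptor CAR that induces P450 genes, also did not overlap between diets, at 7.53, 7.91 and 8.17 on chow and 8.35, 8.37 and 8.75 on the HFD (0.57 ± 0.17, adjusted p = 0.232). Groups failed to overlap at 0.338% of all probe sets, 53 in number, of which 23 were called.

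Nr0b2, the bile acid-induced corepressor SHP, rose from 7.70, 8.998 and 9.56 to 9.53, 10.02 and 10.59 (1.13 ± 0.25, adjusted p = 0.0354), or 2.19-fold. HFD array 22 was the 1 array inside the chow range. The call was lost in 9 of the 13 fits that left out 1 array. Cyp7a1, the rate-limiting enzyme of bile acid synthesis that SHP represses, was at -0.25 ± 0.24 (adjusted p = 0.857), with HFD arrays from 11.41 to 12.10 and chow arrays from 11.49 to 12.51. No other member of 13 bile acid genes was called, and their median was 0.03 (-0.04 after quantile normalization). Of 13 transporters of bile acids and organic anions none was called. Abcc3 was at -0.42 ± 0.15 (adjusted p = 0.35) and Abcc6 at 0.30 ± 0.13 (adjusted p = 0.486).

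Kupffer cells, the resident macrophages of the liver, carried 1 call. Marco, a scavenger receptor, read 6.83, 7.27 and 7.57 on chow and 5.33, 5.98 and 6.44 on the HFD (-1.30 ± 0.22, adjusted p = 0.0028), or 2.46-fold lower. The groups did not overlap, and the call held in every one of the 23 alternative fits, including the one without array 34 (-1.19 ± 0.22, adjusted p = 0.0129). Of 9 Kupffer identity genes, 7 were below 0 with a median of -0.48, and Cd5l (-0.80 ± 0.20, adjusted p = 0.0932), Vsig4 (-0.70 ± 0.19, adjusted p = 0.159), Clec4f (-0.65 ± 0.18, adjusted p = 0.178) and Cd163 (-0.48 ± 0.16, adjusted p = 0.322) were not called. After quantile normalization Cd5l and Vsig4 were called too (adjusted p = 0.0242 and 0.0436), and Cd5l was called without chow array 21 (-0.90 ± 0.19, adjusted p = 0.0307). With arrays 21, 22, 24 and 25 as a block term Cd5l and Clec4f were called (adjusted p = 0.0341 for both). The list's members above 0 were Nr1h3 (0.19 ± 0.11) and Slc40a1 (0.01 ± 0.12). The summed intensity of the list ran from 6557 to 10443 on chow and from 5760 to 8254 on the HFD.

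General macrophage genes were below 0 at 14 of 14 (median -0.33, no call, 8 with an unadjusted p under 0.05), with Ctss, a lysosomal protease, at -0.54 ± 0.17 (adjusted p = 0.285) and C1qb, a complement subunit, at -0.48 ± 0.16 (adjusted p = 0.322). Lymphocyte genes were below 0 at 8 of 9 (median -0.25, no call), led by Gzma at -0.45 ± 0.19 (adjusted p = 0.479) and Prf1 at -0.40 ± 0.14 (adjusted p = 0.387). HFD array 34 was the lowest array for all 3 lists, at -0.97, -0.78 and -0.56 against the chow mean, and chow array 30 was the lowest of its group for each. Without array 34 the medians were -0.41, -0.25 and -0.24. Endothelial and stellate lists were near 0, at -0.05 (9 genes) and -0.06 (14 genes), with no call. Arrays 34 and 30 were the lowest of their groups there too, at -0.29 and -0.49 for the endothelial and -0.31 and -0.38 for the stellate list. For the hepatocyte list they were at 0.16 and -0.07. Each also had the lowest median intensity of its group (97.9 for array 34 and 102.3 for array 30). The low lists on these arrays are therefore not particular to immune cells. Whether cell numbers or RNA per cell moved was not tested. Interferon and antigen presentation genes were below 0 at 25 of 31 (median -0.13, -0.04 without array 34), and 16 of 18 NRF2 antioxidant genes were below 0 (median -0.14), with no call in either list.

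**Figure D4:**
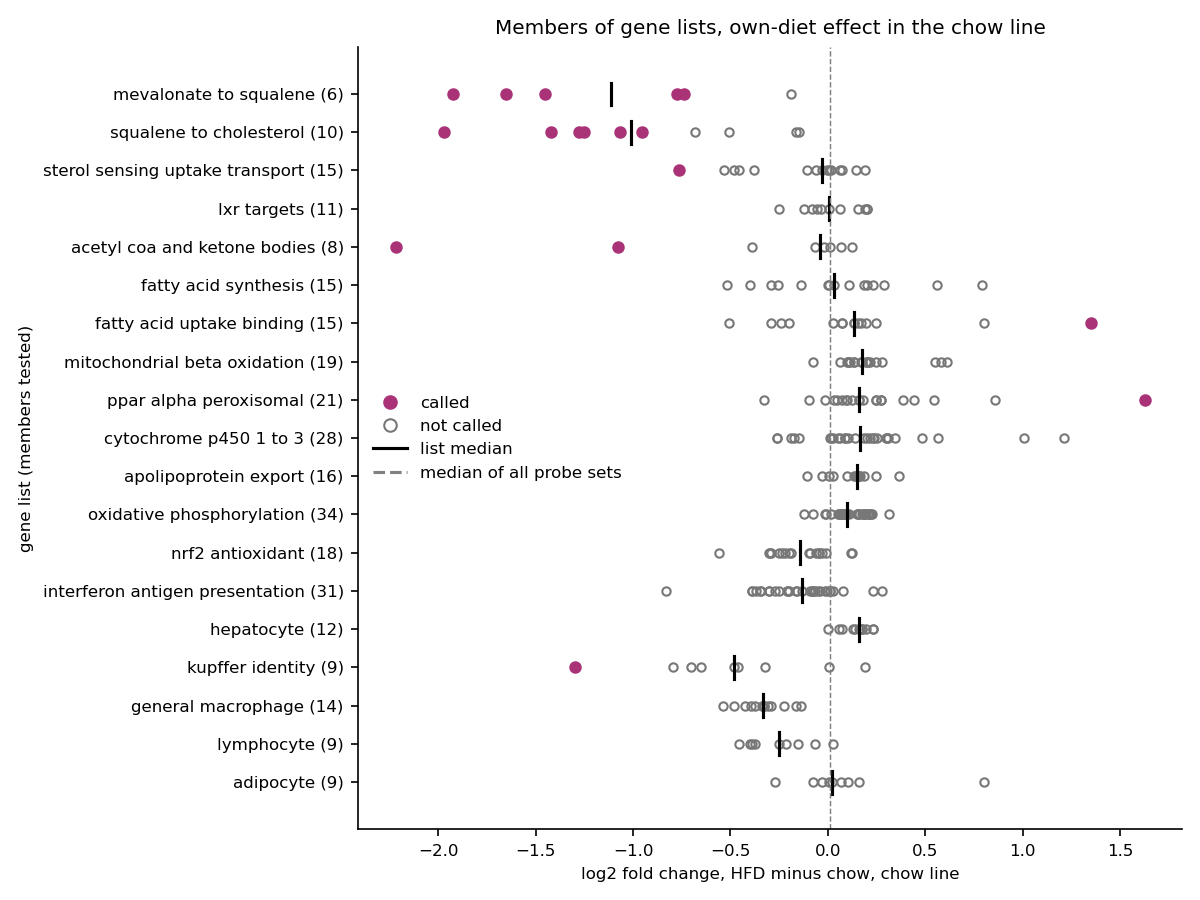
Log2 fold change (HFD minus chow, chow line) of every tested member of 19 gene lists; filled points are called, open points are not, short bars are list medians and the dashed line is the median of all probe sets (0.01). The 2 cholesterol lists sit at medians of -1.11 and -1.01, beta-oxidation at 0.18, and Kupffer identity at -0.48.

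Several further calls belong to no common pathway. Car12, a membrane carbonic anhydrase, read 8.95, 9.23 and 10.15 on chow and 7.02, 7.76 and 8.93 on the HFD (-1.61 ± 0.27, adjusted p = 0.00295), with array 32 again the highest HFD array. The abundant relative Car3 was not called (-0.82 ± 0.33, adjusted p = 0.45), with array 34 far down at 8.90. Mab21l3 read 7.03, 7.70 and 8.40 on chow and 5.49, 5.76 and 7.09 on the HFD (-1.63 ± 0.24, adjusted p = 0.000929). For Mab21l3 array 33, the lowest HFD array in cholesterol synthesis, was the highest HFD array and the 1 that overlapped chow. Gstt3, a glutathione transferase, fell by 1.03 ± 0.20 (adjusted p = 0.0142) without overlap, and lost its call without HFD array 35 (adjusted p = 0.0585). Gsta3, of another class, was not called (-1.08 ± 0.28, adjusted p = 0.12).

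Smaller falls without overlap between the diets included Phlda2, an imprinted growth regulator (-0.59 ± 0.10, adjusted p = 0.00186), the 1 call among 10 imprinted genes, and Sesn1, a stress-responsive regulator of mTORC1 (-0.49 ± 0.09, adjusted p = 0.00628). Akap5, which anchors protein kinase A, fell by 1.01 ± 0.19, Lca5, a ciliary protein, by 0.92 ± 0.16, Syn2, a synapsin, by 0.83 ± 0.14, Clcn6, an endosomal ion exchanger, by 0.61 ± 0.12, and Bri3bp by 0.59 ± 0.11. Clcn6 lost its call without HFD array 34 or 35 (adjusted p = 0.0604 and 0.0619). Falls with overlap were those of Slc37a2, a sugar phosphate carrier (-0.83 ± 0.18), Pls1, an actin bundler (-0.74 ± 0.15), Dpysl5 (-0.65 ± 0.14), Tlcd1 (-0.58 ± 0.13), Pfkfb4, which sets the level of a glycolytic regulator (-0.51 ± 0.11), and Ogdhl (-0.42 ± 0.09). Dpysl5, Syn2 and Ogdhl were near the dim end, with chow medians of 6.42, 6.45 and 6.18, where log2(intensity + 16) understates a change. The unnamed probe sets 10813214, 10870567 and 10854084 fell by 1.39, 0.64 and 0.47.

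Spink1l, a trypsin inhibitor of the pancreatic secretory type, had the largest rise among the calls. It read 5.44, 6.04 and 7.32 on chow and 7.40, 8.07 and 8.97 on the HFD (1.97 ± 0.34, adjusted p = 0.00341), or 3.93-fold higher, with no overlap. Its near copy Spink1 was under the filter, at group means of 4.82 and 5.84, so the signal of the 2 cannot be assigned with certainty. Of 10 other acinar pancreas genes tested none was called, and Cpa1, the bright one among them, was at -0.90 ± 0.47 (adjusted p = 0.606). Kcnma1, a calcium-activated potassium channel, rose from 5.70, 6.71 and 7.84 to 7.73, 8.47 and 9.60 (1.62 ± 0.31, adjusted p = 0.0117), with HFD array 31 alone inside the chow range. Its call was lost without HFD array 35, the highest of its group (1.38 ± 0.30, adjusted p = 0.05002), and without arrays 21, 22, 24 and 25 together (1.22 ± 0.32, adjusted p = 0.135).

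Ccnd1, cyclin D1, which drives cells out of G1, rose from 9.16, 9.35 and 10.48 to 10.18, 10.39 and 10.87 (0.90 ± 0.19, adjusted p = 0.031). Chow array 28, at 10.48, lay among the HFD arrays, and the other 6 chow arrays were below all of them. The call was lost in 8 of the 13 fits that left out 1 array. Of 24 cell cycle genes it was the 1 call, with 16 above 0 and a median of 0.07. In limma 8 of them had an unadjusted p under 0.05, 7 higher and 1 lower on the HFD, against 8.8% of all probe sets. Mki67 was at 0.52 ± 0.24 (adjusted p = 0.545), Ccnb2 at 0.36 ± 0.11 (adjusted p = 0.283), and Cdkn1a, an inhibitor of the cycle, at -0.96 ± 0.38 (adjusted p = 0.443). The other rises were Myo3a (1.08 ± 0.20), Pcdh7, a protocadherin (0.67 ± 0.14), Polg2, a subunit of the mitochondrial DNA polymerase (0.58 ± 0.13), Synj2, a phosphoinositide phosphatase (0.55 ± 0.12), Setbp1 (0.49 ± 0.08) and Klf12, a transcription factor (0.36 ± 0.08). Setbp1 and Klf12 had every HFD array above every chow array.

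Some uncalled genes had large or separated values. Hsd11b1, which regenerates active glucocorticoid, was 3.83-fold lower on average (-1.94 ± 0.47, adjusted p = 0.0784). It read 5.88, 8.37 and 9.40 on chow and 5.31, 6.11 and 7.28 on the HFD, and chow array 30, at 5.88, lay below 4 of the HFD arrays. Without that array it was called (-2.31 ± 0.41, adjusted p = 0.00628), and likewise without HFD array 31 (-2.16 ± 0.48, adjusted p = 0.041). Each of these arrays went most against the difference within its group, so leaving it out favours a call. Orm1, an acute-phase glycoprotein, was lower on all 6 HFD arrays than on any chow array (-0.81 ± 0.21, adjusted p = 0.106). Hlf, a transcription factor under clock control, was higher on all 6 (0.79 ± 0.22, adjusted p = 0.161). Within the same list Per2 was at 0.84 ± 0.28 (adjusted p = 0.314) and Dbp at 1.03 ± 0.54 (adjusted p = 0.599). Chow array 30 was the highest chow array for Hlf, Per2 and Dbp. The labels give no hour of tissue collection.

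No member of the immediate-early, one-carbon, growth hormone or glucose lists was called. Immediate-early genes, which respond within minutes to signals and handling, were below 0 at 16 of 21 (median -0.18), with Ier3 at -0.67 ± 0.17 (adjusted p = 0.0978) and Ier2 at -0.55 ± 0.16 (adjusted p = 0.204). Ier3 was called without chow array 30 (adjusted p = 0.0401) or HFD array 22 (0.0413). In one-carbon metabolism Mthfd1, a folate enzyme, was at -0.37 ± 0.10 (adjusted p = 0.169, and 0.0292 without chow array 21), and Nnmt, a methyl-consuming enzyme, at -0.54 ± 0.18 (adjusted p = 0.313), while the 23 genes had a median of 0.03 (-0.03 after quantile normalization). Igfbp3, a carrier of insulin-like growth factor, was at -0.50 ± 0.14 (adjusted p = 0.169) and was called after quantile normalization (adjusted p = 0.0164). Among the nuclear receptors, Pparg, the adipogenic one, was uncalled at -0.69 ± 0.19 (adjusted p = 0.169), with 5 of the 6 HFD arrays below the lowest chow array. Without HFD array 35, the exception at 6.90, it was called (-0.88 ± 0.17, adjusted p = 0.0142). Leaving out the array that goes most against a difference favours a call, so this adds no support. Pck1, the key enzyme of glucose production, was at -0.42 ± 0.17 (adjusted p = 0.453), and 9 of 19 glucose and insulin genes were above 0.

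Set beside the HFD line, whose females shared no array with this comparison, the falls recurred and the rises did so in part. All 38 probe sets that fell were lower on the HFD there too, and 31 of them were called there, where 0.657% of all probe sets were called as falls and 0.752% in either direction, and 11228 of the 15687 were below 0. Of the 12 that rose, 11 were above 0 there and 4 were called. Both lines were fitted in the same model and share 1 estimate of the spread for each probe set. The calls in the HFD line are therefore not independent of those here. Dhcr7 changed by -1.35 ± 0.12 in the HFD line, Sqle by -2.43 ± 0.35, Aacs by -1.60 ± 0.29, Marco by -1.03 ± 0.24 and Spink1l by 1.84 ± 0.37. Vnn1 was at 0.08 ± 0.32 there, Ccnd1 at -0.08 ± 0.21 and Klf12 at 0.12 ± 0.08.

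The difference of the own-diet effect between the lines was tested in the same fit and had no call. In limma, 9.71% of probe sets had an unadjusted p under 0.05 and the smallest adjusted p was 0.131, and limma without the trend made no call either. For Vnn1 the effect was larger in the chow line by 1.55 ± 0.43 (unadjusted p = 0.00142, adjusted p = 0.24), and for Ccnd1 by 0.98 ± 0.29 (adjusted p = 0.267). Klf12 differed by 0.24 ± 0.11 (adjusted p = 0.502). These were the 3 called genes with an unadjusted p under 0.05 for the difference. Beta-oxidation genes had a median of -0.13 in the HFD line against 0.18 here, with Eci1 differing by 1.06 ± 0.32 and Decr1 by 0.77 ± 0.23 (adjusted p = 0.267 for both). Over all probe sets the HFD line's median was -0.09. Without chow array 28 the difference had 57 calls, and without HFD array 22 it had 48, of which 41 and 37 were probe sets of 1 ribosomal protein gene, Rpl21, whose many near-identical copies share probes.

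**Figure D5:**
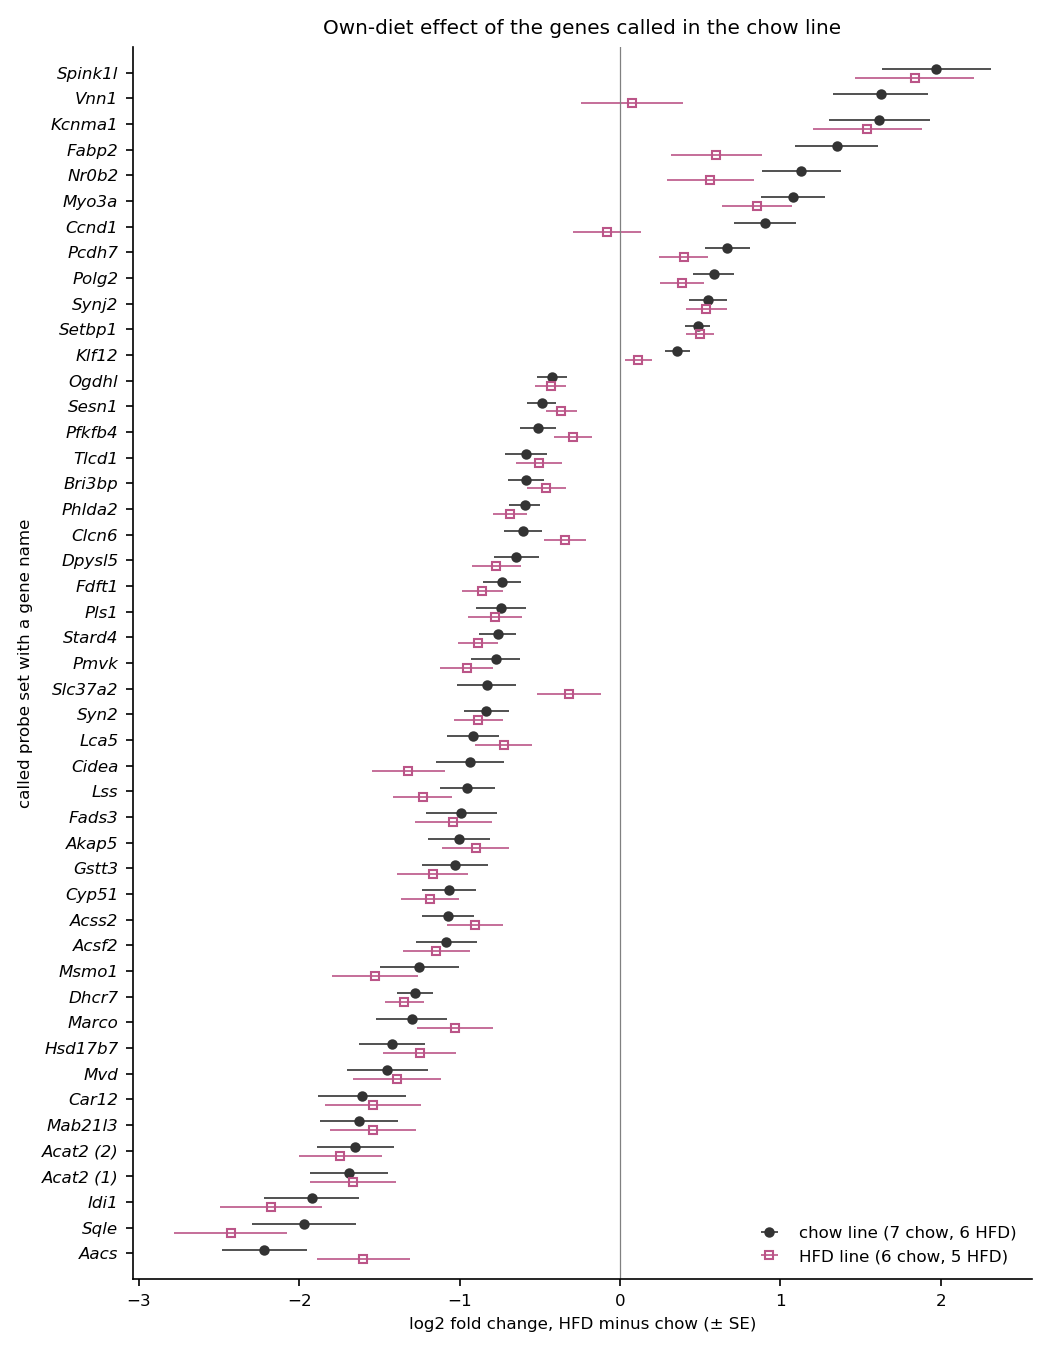
Log2 fold change (HFD minus chow, with its standard error) of the 47 called probe sets with a gene name in the chow line (filled circles, 7 chow and 6 HFD arrays) and in the HFD line (open squares, 6 and 5 arrays); Acat2 has 2 probe sets. The falls lie close together in both lines, while Vnn1 (1.63 against 0.08) and Ccnd1 (0.90 against -0.08) lie apart.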

How the data were processed

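Liver RNA of 24 females was measured on 1 array each. The values the authors deposited are linear intensities, 1 for each probe set on each array. The submitters' processing notes name PLIER and Affymetrix Expression Console, and how arrays were normalized is not stated in the labels. They were used as log2(value + 16) with no normalization added, so log2 fold changes of dim probe sets are understated. Of 20917 probe sets, the dimmest 25% by mean signal (5230, under 5.72) were left out. Group means of all 4 groups (24 arrays) entered 1 limma model (version 3.58.1, R 4.3.3) with an intensity trend, so the groups share 1 estimate of the spread, and the model was tested on simulated data. For arrays, their number limits the precision. Probe sets were named by the platform annotation with symbols renewed from a RefSeq table, and 18197 probe sets had 1 gene.

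Named were every called gene, all members of the cholesterol and sterol sensing lists, and, from the other lists, up to 6 members with the smallest p plus defining ones. A gene with several probe sets is given by its brightest. The members, the 49 lists and the alternatives were chosen with earlier results of these data known. Of the lists with a cell type, hepatocyte, Kupffer, macrophage, lymphocyte, endothelial, stellate and acinar lists are reported. The adipocyte (9 genes tested), recruited myeloid (6), bile duct (6), erythroid (4), skeletal muscle (5), mesothelial (4), pericentral (7) and periportal (8) lists held no call. The alternatives changed scaling, filter, offset, the arrays fitted and the variance model, took arrays 21, 22, 24 and 25 (apart from the rest in a principal component analysis) out or as a block term, or left out each array in turn. No pair of columns was identical.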

Additional observations from a re-analysis of the deposited data

Results flagged for a closer look

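In groups of 6 or 7 arrays, the highest or lowest array was set against its nearest neighbour by Dixon's criterion, for 248 groups of values. It marked 15 of them, which is close to the share of about 1 in 20 groups that chance alone marks. All values are log2 signals of single arrays unless said otherwise.

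On chow, array 27 was marked as low for the cholesterol genes Msmo1 (10.866, with the next array at 11.435) and Fdft1 (11.543, next 11.904). Chow array 30 was low for Pck1 (12.031, next 12.527) and high for the clock gene Per2 (7.8623, next 7.2635). Chow array 21 was low for Npc2 (10.565, next 10.941).

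On the HFD, array 34 was marked most often, though its marks are not independent, since Vsig4 is a member of the Kupffer list. It was high for Vnn1 (9.9669, next 9.4594), and low for Car3 (8.9013, next 10.701), Vsig4 (8.3783, next 9.1874) and C1qb (9.0257, next 9.6491). The mean levels of the Kupffer and lymphocyte lists, set against chow, were also lowest on array 34, at -0.96618 (next -0.49957) and -0.55563 (next -0.23435). Among the other HFD arrays, array 22 was high for the unnamed probe set 10854084 (9.0383, next 8.5981), array 35 for Cyp2a1 (12.743, next 12.579) and array 33 for Nr1i3 (8.7454, next 8.4953). Array 32 was low for Fads2 (12.412, next 12.733).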

How the results depend on the processing

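None of the 50 called probe sets changed direction under any of the 23 alternatives. Of 64 named genes without a call, 5 sterol genes near 0 did, with no adjusted p under 0.825. Without arrays 21, 22, 24 and 25 Mbtps2 was at 0.0386, Soat1 at -0.00638, Mylip at -0.0180 and Stard5 at 0.0734. With these arrays as a block term Soat1 was at -0.000939, and after centring Stard5 was at 0.0140. Leaving out 1 array gave -0.158 to 0.0255 for Mbtps2, -0.104 to 0.0474 for Scarb1, -0.0514 to 0.114 for Soat1, -0.0352 to 0.0405 for Mylip and -0.0748 to 0.0512 for Stard5. The medians of 27 of the 49 lists changed sign in some alternative, 10 of them after quantile normalization, and none of the 27 was 0.1 or more in size. The median of all probe sets was -0.0049 without the 4 arrays. Quantile normalization called 89 probe sets (24 rose and 65 fell), of which 49 were among the 50 of the report, and centring each array on its median called 79 (25 rose), again with 49 shared. The cause was not tested. Leaving out 1 array at a time gave 34 to 55 calls, 6 to 22 that rose and 27 to 49 that fell. The count that rose was 6 without chow array 21, 22 without chow array 28, and 7 without HFD array 34 or 35. Cholesterol synthesis kept 11 to 13 called members in these fits, and 10 when the 13 chow-line arrays were fitted alone. Differences between the lines were called at 0 to 57 probe sets: 57 without chow array 28 and 48 without HFD array 22, of which 41 and 37 were Rpl21, and 0 in the other fits. Of the 50 called probe sets, 29 kept the call in all 23 alternatives. Fads3, Cidea, Slc37a2, Tlcd1 and Polg2 each lost it in 10 of the 13 fits without 1 array. Of the 64 genes without a call, 18 gained one in some alternative. There was no correction for the 23 alternatives, and arrays 21, 22, 24 and 25 were picked from the same data. The gained calls therefore add no support. The 4 arrays as a block term gave 72 calls (16 rose, 56 fell), and leaving them out gave 56 (10 rose, 46 fell), where 11 of the named calls were lost. The median of the hepatocyte list moved to 0 after quantile normalization. No paired analysis was possible because the labels give no pairing or litter and no title number is shared between groups.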
